A study of Mus musculus with 9 samples.

Results

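Solute carriers are membrane proteins that move ions, nutrients and metabolites across the plasma membrane and the membranes of organelles, either down a gradient or coupled to one. The genes described here are those whose symbol begins with Slc or Slco followed by a digit, a rule that uses names only. It found 110 genes among the 7738 distinct symbols of the study. Of these, 109 were among the 7676 genes tabulated for inbred wild type lenses, 3 among the 190 genes tabulated for the knockout and mixed wild type lenses, and 2, Slc8a1 and Slc46a3, in all 3 groups. The rule also caught 4 genes that are not transporters: Slc7a6os, on the strand opposite Slc7a6, Slc4a1ap, an adaptor protein, and Slc9a3r1 and Slc9a3r2, scaffold proteins that bind sodium-proton exchangers. No Slco gene was listed.

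RNA was sequenced from mouse lenses at 15.5 days post conception, with 3 libraries per group and 30 pooled lenses per library. The conditional knockout (cKO) lenses were Sip1 flox/flox with MLR10Cre, a transgene that expresses Cre recombinase in lens epithelium and fibres from a modified alpha A-crystallin promoter. Mixed wild type lenses were Sip1 flox/flox without Cre, on the same mixed strain background as the cKO. Inbred wild type lenses came from the strain C57Bl/6<har>. Sip1 is the protein of Zeb2, a zinc finger transcription factor. Zeb2 was at 5.16, 5.96 and 6.31 RPKM in the inbred libraries and was not among the 190 genes, so the cKO label could not be checked against it. RPKM is reads per kilobase of exon and per 1e6 mapped reads. The depth that the step size of low RPKM values implied was 25.9 to 27.4 M reads (M, 1e6) for the cKO libraries, 38.7 to 44.1 M for mixed and 14.1 to 16.7 M for inbred wild type libraries. All 11 lens markers were listed in the inbred libraries, and 0 of 6 retinal, 0 of 7 neuronal, 0 of 5 mesenchymal and 0 of 4 macrophage markers. Of 12 erythroid markers 6 were listed, of 6 endothelial markers 5, and of 7 pigment cell markers 1 (Mitf, 3.05 RPKM).

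The lens has no blood vessels inside it, and its fibre cells lose their organelles as they mature. Glucose, amino acids, ions and antioxidants therefore enter from the surrounding fluids, and carriers of the outer cells, together with the sodium pump and gap junctions, are known to serve the whole organ. Calcium is kept low in lens cells by pumps and exchangers, and a rise in calcium is a known feature of cataract.

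Of the carriers tabulated for knockout lenses, a glutamine carrier and the sodium-calcium exchanger were higher in cKO than in mixed wild type, and a lysosomal carrier was lower. Each of the 190 genes had a cKO mean of the deposited normalized values at least 2.51 times above or below that of mixed wild type, so the table holds genes that differ in these same libraries. In limma across these genes 99.5% were called at an adjusted p under 0.05, and in 100% the 3 libraries of each group did not overlap. The calls of the 3 carriers are to be read against that. Carriers made up 1.58% of the 190 genes and 1.42% of the inbred table. A carrier outside the 190 has no cKO or mixed wild type value here.

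Slc38a5 encodes SNAT5, a sodium-coupled carrier of glutamine and other neutral amino acids that exchanges protons. It stood at 9.95, 9.99 and 9.79 RPKM in the cKO libraries, against 1.34, 1.20 and 1.54 RPKM in the mixed wild type libraries. The cKO values lay close together, and each was far above every mixed wild type value. Slc38a5 averaged 9.91 ± 0.10 RPKM in cKO and 1.36 ± 0.17 RPKM in mixed wild type (SD, n = 3 each), a ratio of 7.29. Its log2 fold change on the log2(RPKM + 0.5) scale was 2.49 (SE 0.10, limma adjusted p = 1.28e-09), and 160 of the other genes of the table had a lower (or more negative) one. Slc38a5 was not among the inbred genes, whose lowest mean was 2 RPKM, and its level in mixed wild type was below that.

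Slc8a1 encodes NCX1, which moves calcium out of cells in exchange for sodium. The cKO libraries held 6.30, 6.74 and 6.31 RPKM, against 1.93, 0.98 and 1.42 RPKM in mixed wild type. In reads these values were 530, 535 and 503 in cKO, against 229, 130 and 192 in the more deeply sequenced mixed wild type. All cKO values were thus above all mixed wild type values, among which replicate 2 was the lowest. Slc8a1 averaged 6.45 ± 0.25 RPKM in cKO and 1.44 ± 0.47 RPKM in mixed wild type (SD, n = 3 each), a ratio of 4.47. The log2 fold change was 1.87 (SE 0.16, limma adjusted p = 4.47e-07).

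Slc46a3, a carrier of the lysosomal membrane, went the other way. It stood at 4.33, 3.93 and 3.57 RPKM in cKO, against 11.7, 11.1 and 12.1 RPKM in mixed wild type. The groups did not overlap, and the highest cKO library was below the lowest mixed wild type library by a wide margin. Slc46a3 averaged 3.94 ± 0.38 RPKM in cKO and 11.6 ± 0.51 RPKM in mixed wild type (SD, n = 3 each), and its log2 fold change was -1.45 (SE 0.09, adjusted p in limma 5.89e-08). Its mean was 2.95-fold lower in cKO.

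**Figure D1:**
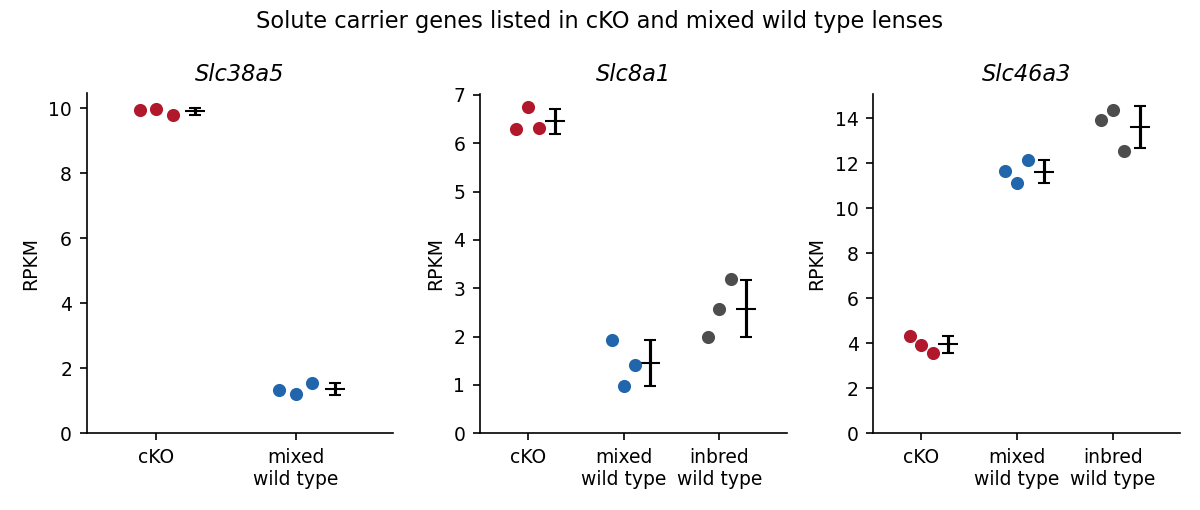
RPKM of Slc38a5, Slc8a1 and Slc46a3 in each library, with group means and SD (bars, n = 3) to the right of the points; each panel has its own linear axis from 0. Slc38a5 and Slc8a1 were highest in cKO and Slc46a3 lowest in cKO, and Slc38a5 had no inbred values.

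The size of these differences depended on scaling. The median log2 fold change over the 190 genes was 1.37. As these genes all differ between the groups, with 103 called higher and 86 lower in cKO, a median of 0 need not hold. Rescaling over this table therefore cannot tell which size is right. Under quantile normalization the log2 fold changes became 1.46 for Slc38a5, 0.84 for Slc8a1 and -2.29 for Slc46a3, and under median centring 1.61, 0.98 and -2.34. The directions and calls held in both. On the scale of the normalized values that the authors deposited beside RPKM, which has no unit, Slc38a5 averaged 548 in cKO and 91.7 in mixed wild type. Slc8a1 averaged 487 in cKO and 133 in mixed wild type, and Slc46a3 averaged 237 in cKO and 868 in mixed wild type. The directions were those of RPKM.

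The 250 bases before the RefSeq start of these genes (GRCm38.p6) are shown because Zeb2 proteins are known to bind the core CACCT. Each is printed 5′ to 3′ on the gene's strand, with any match to CACCT or its reverse complement AGGTG in capitals. Slc38a5 lies at chrX:8271131-8271380 on the plus strand, Slc8a1 at chr17:81738388-81738637 on the minus strand and Slc46a3 at chr5:147894816-147895065 on the minus strand.
Slc38a5: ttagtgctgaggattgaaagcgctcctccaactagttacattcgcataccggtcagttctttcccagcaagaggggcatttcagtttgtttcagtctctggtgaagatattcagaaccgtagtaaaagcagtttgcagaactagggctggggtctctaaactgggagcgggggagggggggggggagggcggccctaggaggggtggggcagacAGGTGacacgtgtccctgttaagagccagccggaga
Slc8a1: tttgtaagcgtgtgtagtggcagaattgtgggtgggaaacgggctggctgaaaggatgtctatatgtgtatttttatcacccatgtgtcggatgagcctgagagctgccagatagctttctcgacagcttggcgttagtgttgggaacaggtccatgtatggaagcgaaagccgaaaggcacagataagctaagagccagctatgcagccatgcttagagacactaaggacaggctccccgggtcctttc
Slc46a3: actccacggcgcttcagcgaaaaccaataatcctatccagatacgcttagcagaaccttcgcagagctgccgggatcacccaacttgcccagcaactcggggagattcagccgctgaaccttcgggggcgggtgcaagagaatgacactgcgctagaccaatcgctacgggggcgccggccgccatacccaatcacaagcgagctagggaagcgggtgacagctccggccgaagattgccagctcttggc
Slc38a5 had 1 match, on the reverse strand, which begins at position -36 counted from the start of the gene, and neither Slc8a1 nor Slc46a3 had a match in this window. Of all 32851 promoters in the table, 15100 held at least 1 match in the same 250 bases (45.97%). Promoters were found for 89 of the 110 carriers, and 43 of these, 48.3%, held a match. A match is a description of the letters and not a binding site, and the lack of one says nothing about the factor.

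Mixed against inbred wild type compares these carriers between wild types of different background, which also differ in depth and in floxed alleles. Of the 2 carriers measured in both, Slc8a1 was called, lower in mixed wild type, and Slc46a3 was not called. The lowest mean in the inbred table was 2 RPKM. A gene at the mixed level of Slc8a1, 1.44 RPKM, could therefore enter this comparison only with a higher inbred mean, so its direction was fixed by the listing. Slc8a1 stood at 1.93, 0.98 and 1.42 RPKM in mixed wild type, against 1.99, 2.56 and 3.18 RPKM in inbred wild type, where these values rested on 102, 128 and 138 reads. The groups lay side by side without overlap, with only a narrow gap between the highest mixed and the lowest inbred library. The log2 fold change was -0.67 (SE 0.21, limma adjusted p = 0.0248), where the mixed mean was 1.44 ± 0.47 RPKM and the inbred mean 2.58 ± 0.59 RPKM (SD, n = 3 each). Leaving out replicate 2 of mixed wild type ended this call (adjusted p = 0.0625), as did leaving out replicate 2 (0.0571) or 3 (0.112) of inbred wild type. Quantile normalization ended it as well (0.154, log2 fold change -0.34).

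Slc46a3 stood at 11.7, 11.1 and 12.1 RPKM in mixed wild type, against 13.9, 14.4 and 12.6 RPKM in inbred wild type. The libraries did not overlap here either, but the difference was small, with a log2 fold change of -0.22 (SE 0.09), and was not called by limma (adjusted p = 0.0643). The normalized values of Slc46a3 ran the other way, with means of 868 in mixed and 845 in inbred wild type, and were not tested between these groups. On the RPKM scale it was called under quantile normalization (adjusted p = 0.0293), under median centring (0.0116) and without inbred replicate 3 (0.0403). Of the 128 genes in this comparison 49.2% were called and 57.0% had libraries that did not overlap, and the carriers' 1 call and 2 gaps are to be read against those shares. All 128 are among the 190 genes, which differ between cKO and these same mixed libraries, so the shares do not describe genes at large.

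Against inbred wild type, with which the cKO shares neither strain background nor floxed alleles, the knockout values lay on the same sides. Slc8a1 averaged 6.45 ± 0.25 RPKM in cKO, against 2.58 ± 0.59 RPKM in the inbred libraries (SD, n = 3 each; log2 fold change 1.19, SE 0.16, limma adjusted p = 2.83e-06). Slc46a3 averaged 3.94 ± 0.38 RPKM in cKO and 13.6 ± 0.94 RPKM in inbred wild type (log2 fold change -1.67, SE 0.13, limma adjusted p = 9.69e-09). Of the 128 genes, 93.8% were called, and 93.8% had libraries that did not overlap. The cKO libraries are those of the first comparison, so this comparison is not a separate test of the knockout. The ratio of means for Slc8a1 was 4.47 against mixed wild type and 2.50 against inbred wild type. No inbred mean under 2 RPKM was listed. At a cKO mean of 6.45 RPKM the second ratio could therefore only be the smaller, and their order is not a result.

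**Figure D2:**
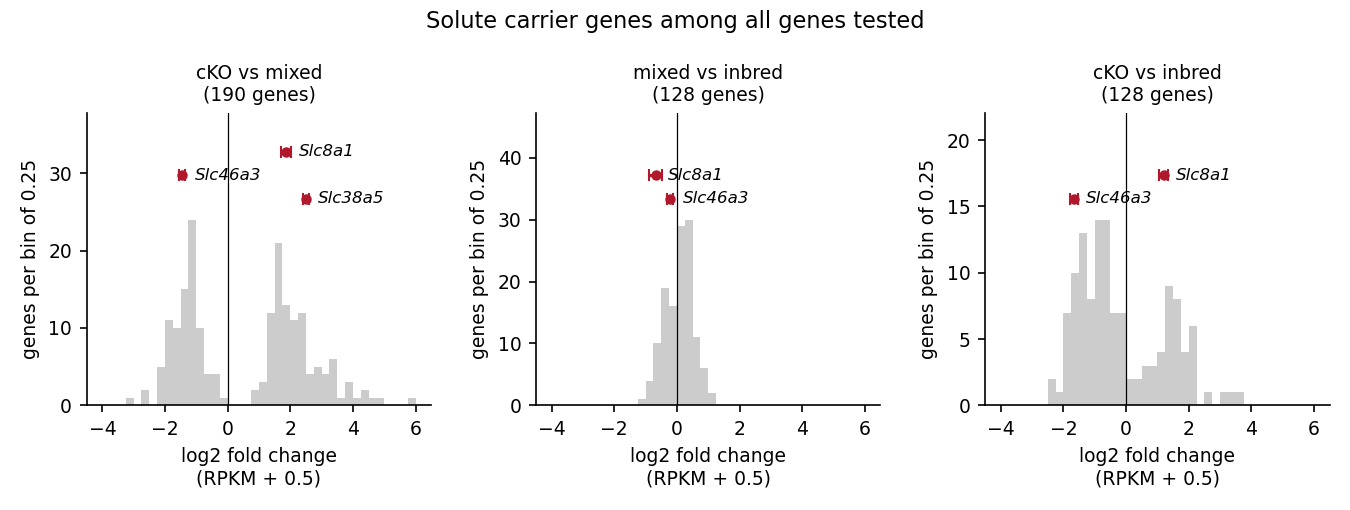
Log2 fold changes on the log2(RPKM + 0.5) scale; grey bars count all genes tested in each comparison in bins of 0.25, and red points with bars show the carriers with SE, placed above the bars for legibility. In cKO vs mixed wild type the carriers at 2.49, 1.87 and -1.45 sit within the range of all 190 genes, -3.21 to 5.95.

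Markers of other cells also differed between these libraries. Of the erythroid list 2 of 12 genes were among the 190. Hba-a2, an alpha globin gene, averaged 109 ± 29.5 RPKM in cKO and 476 ± 73.3 RPKM in mixed wild type, and Hba-x, an embryonic globin gene, averaged 1.64 ± 0.88 RPKM in cKO and 6.70 ± 2.19 RPKM in mixed wild type (SD, n = 3 each). Of the endothelial list 1 of 6 was among them, Tek, at 8.31 ± 0.41 RPKM in cKO and 2.71 ± 0.17 RPKM in mixed wild type. The part of such cells in the differences of Slc38a5, Slc8a1 and Slc46a3 was not tested, and in bulk RNA fewer cells of a type cannot be told apart from less RNA per cell.

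The inbred libraries gave the wider picture of carriers in a wild type lens. The 109 listed genes had a median of 5.90 RPKM, beside 7.65 RPKM over all 7676 listed genes, and ranged from 2.05 RPKM for Slc6a17 to 226 RPKM for Slc2a1. At 10 RPKM or more stood 38 of them (34.9%, beside 40.7% of all listed genes), at 50 RPKM or more 7 (6.42%, beside 8.48%) and under 5 RPKM 45 (41.3%, beside 33.6%). The median and the shares at 10 and 50 RPKM thus lay somewhat below those of all listed genes, but the shares were near each other and the differences were not tested. Together they took 0.593%, 0.622% and 0.655% of mapped reads in the 3 libraries, with 52 to 10357 reads per gene and library. The 5 highest held 40.2% of the summed RPKM of carriers and the 20 highest 68.5%.

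The annotation GENCODE M21 names 381 protein-coding genes by the same rule once the 4 genes that are not transporters are set aside, and 105 of these, 27.6%, were listed. Of 50 numbered families, 30 had a listed member. Every annotated member was listed in 5 families, among them the sodium-phosphate carriers Slc20 and the copper carriers Slc31. The 20 families with none included the sodium-glucose family Slc5, with 13 annotated genes, the organic anion carriers Slco, with 14, and the vesicular and lysosomal family Slc17, with 9. An unlisted gene could be under 2 RPKM, left out by another rule or tabulated under an older symbol. It could also be among the 12 repeated symbols left out here. These shares therefore depend partly on naming.

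**Figure D3:**
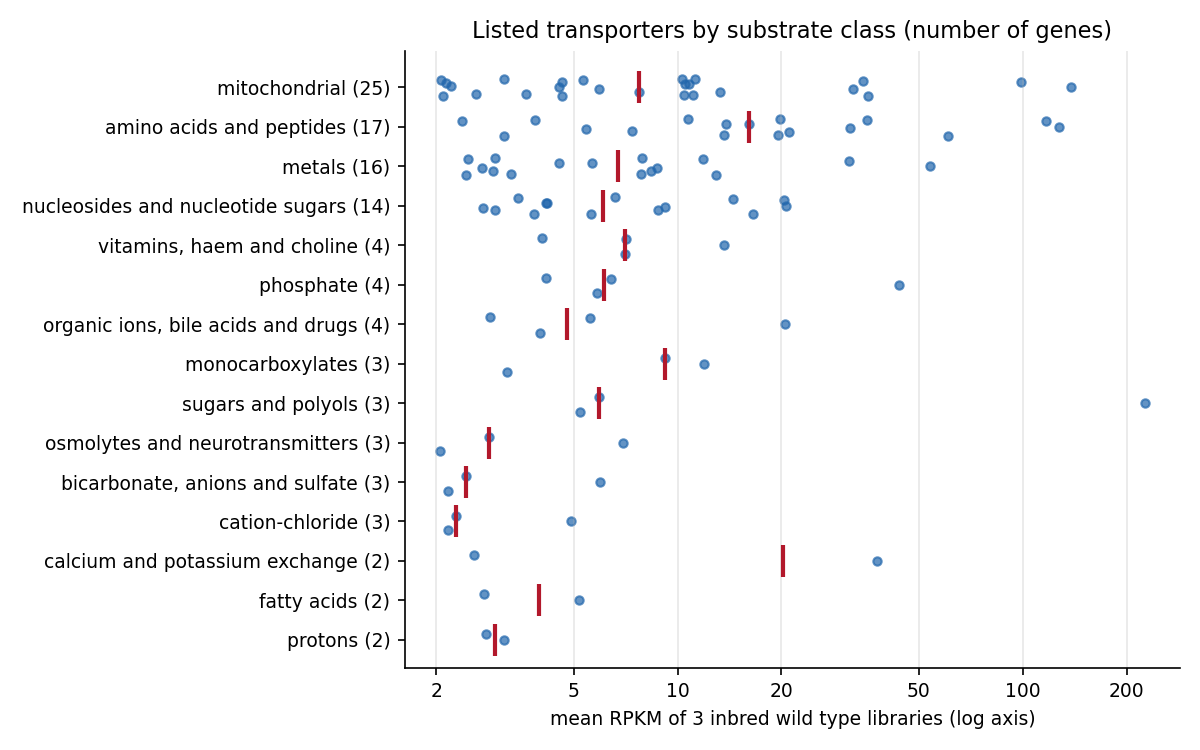
Mean RPKM over 3 inbred wild type libraries (log axis) for the 105 listed transporters, grouped by substrate class; red marks are class medians and numbers in brackets count genes. Amino acid carriers had a median of 16.1 RPKM, and Slc2a1 at 226 RPKM lay far to the right of the other sugar carriers.

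Among the listed sugar and polyol carriers a single gene was abundant as RNA. Slc2a1, which encodes the facilitative glucose carrier GLUT1, stood at 217, 223 and 236 RPKM, the highest carrier by RPKM in each of the 3 libraries. Its mean of 226 ± 9.83 RPKM (SD, n = 3) was 1.64 times that of the next gene, Slc25a4. The normalized value per read of Slc2a1 was 0.468 relative to the median listed gene, beside 0.876 for Slc25a4, and carriers were not ranked on that scale. The only others listed among 30 annotated sugar and polyol carriers were Slc50a1, a SWEET family carrier, at 5.90 ± 0.20 RPKM and the intracellular glucose carrier Slc2a8 at 5.22 ± 0.51 RPKM. Of a list of 14 symbols for enzymes of glycolysis, lactate and polyol metabolism 11 were listed, such as Pkm2 at 756 RPKM, Eno1 at 241 RPKM and Ldha at 128 RPKM. Pkm, among those not listed, is the newer symbol of Pkm2.

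Lactate and other monocarboxylates leave or enter cells through Slc16 proteins, of which 3 of 14 were listed. Slc16a12, whose human counterpart is mutated in a family with juvenile cataract, stood at 10.6, 12.2 and 12.9 RPKM. Slc16a3, which encodes the lactate exporter MCT4, averaged 9.21 ± 0.47 RPKM and Slc16a1, for MCT1, 3.20 ± 0.36 RPKM (SD, n = 3). Bsg, which encodes the partner that brings MCT1 and MCT4 to the membrane, was far higher at 177 ± 4.37 RPKM, and Emb, a related partner, stood at 19.4 RPKM.

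Amino acid and peptide carriers were the class with the most RPKM in sum, 509 over 17 genes, and 12 of the 17 were at 10 RPKM or more. Slc3a2, the heavy chain that carries several Slc7 light chains to the membrane, stood at 128, 125 and 130 RPKM and varied little. Slc7a5, the light chain LAT1 for large neutral amino acids, stood at 93.4, 122 and 136 RPKM. The ratio of Slc7a5 to Slc3a2 was therefore 0.729, 0.974 and 1.05 in the 3 libraries, and these neighbours in rank were not separated. Another partner of Slc3a2, the light chain gene Slc7a8 (LAT2), was at 35.3 ± 1.83 RPKM, 0.277 of Slc3a2.

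Slc7a11, the light chain that takes up cystine in exchange for glutamate, stood at 10.7 ± 1.32 RPKM. Cystine feeds the synthesis of glutathione, the main antioxidant of the lens, and all 6 genes of a glutathione and thioredoxin list were present, from Gclc at 7.30 RPKM to Gpx1 at 355 RPKM. Cationic amino acid carriers were represented by Slc7a2 at 31.6 ± 3.75 RPKM and Slc7a1 at 7.37 ± 2.06 RPKM, and the alanine and serine carriers by Slc1a4 at 16.1 ± 2.61 RPKM and Slc1a5 at 5.44 ± 0.23 RPKM. Of the Slc38 family 6 of 11 genes were listed. Slc38a2, the small neutral amino acid carrier SNAT2, led them at 55.8, 62.5 and 64.0 RPKM, followed by the glutamine carrier Slc38a3 at 19.5, 21.5 and 22.1 RPKM and by Slc38a10, Slc38a4, Slc38a1 and Slc38a7 between 19.5 and 2.37 RPKM. Slc38a5, the member found higher in cKO, was the Slc38 gene with knockout values and had none in the inbred table.

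Mitochondrial carriers were the largest class by number, with 25 of 47 Slc25 genes listed and 12 at 10 RPKM or more. The ADP/ATP carrier genes led it. Slc25a4 stood at 147, 133 and 133 RPKM and Slc25a5 at 101, 95.0 and 101 RPKM, and Slc25a4 was the higher in every library, with a ratio of Slc25a5 to Slc25a4 of 0.718 ± 0.035 (SD, n = 3). The phosphate carrier Slc25a3 followed at 35.5 ± 1.04 RPKM, the oxoglutarate carrier Slc25a11 at 34.4 ± 1.88 RPKM and Slc25a39, needed for mitochondrial glutathione, at 32.3 ± 1.74 RPKM. The citrate carrier Slc25a1 stood at 11.2 RPKM, the glutamate carrier Slc25a22 at 11.1 RPKM and the acylcarnitine carrier Slc25a20 at 10.5 RPKM. Iron enters mitochondria through the mitoferrins, Slc25a28 at 5.90 RPKM and Slc25a37 at 3.13 RPKM. Slc25a17, of the same family but known from peroxisomes, was at 13.2 RPKM.

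**Figure D4:**
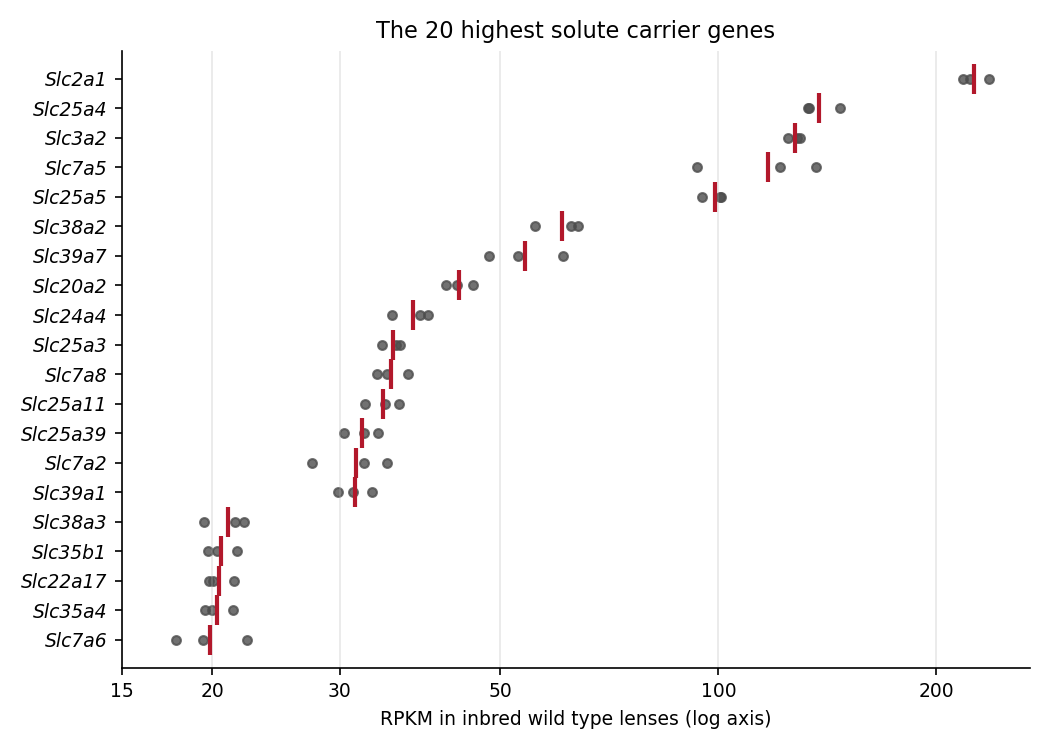
RPKM (log axis) of the 20 carriers with the highest mean in inbred wild type lenses; grey points are the 3 libraries and red marks their mean. Slc2a1 stands apart at 226 RPKM, and within the run from Slc24a4 down to Slc39a1 each gene overlaps the next in rank.

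Metal carriers were listed for 16 of 32 annotated genes. Slc39a7, the zinc carrier ZIP7 of the endoplasmic reticulum and Golgi, led them by RPKM at 52.9, 48.2 and 61.0 RPKM, and Slc39a1, a zinc importer, followed at 31.5 ± 1.71 RPKM. The lead of Slc39a7 is uncertain, because 84.1% of its transcript, in words of 31 bases, also occurs in transcripts of other genes. Its normalized value per read was 0.023 relative to the median listed gene, beside 0.824 for Slc39a1. Zinc importers of the Slc39 family were listed for 7 of 14 genes and the zinc exporters of the Slc30 family for 6 of 10, led by Slc30a9 at 11.9 ± 0.17 RPKM. Slc31a1, the copper importer CTR1, stood at 11.8, 13.3 and 13.7 RPKM, and Slc11a2, the iron importer DMT1, at 2.96 ± 0.06 RPKM. Iron storage and uptake genes were Ftl1 at 728 RPKM, Fth1 at 404 RPKM and Tfrc at 6.53 RPKM, and 5 of 8 genes of the iron and metal list were present. Mt1 of this list, a metallothionein gene that binds zinc and copper, was not in the inbred table but among the 190 genes, at 72.2, 92.3 and 97.0 RPKM in cKO, against 1.03, 1.14 and 0.60 RPKM in mixed wild type.

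Ion carriers were few and mostly low. Slc24a4, which exports calcium and potassium in exchange for sodium (NCKX4), was the exception at 35.4, 38.7 and 39.7 RPKM, and was 1 of 2 listed in its class beside Slc8a1 at 2.58 RPKM. Both differ from the pumps of the ion pump list, of which 5 of 13 were present: the reticulum calcium pump gene Atp2a2 stood at 64.2 ± 5.79 RPKM, the plasma membrane calcium pump gene Atp2b1 at 2.08 ± 0.30 RPKM, and the sodium pump subunit gene Atp1b3 at 110 ± 5.17 RPKM. Channels and gap junction genes of the lens were present for 5 of 8 of a list, led by Mip, an aquaporin of fibre cells, with 3622 RPKM, and Gja3, a fibre cell connexin, with 398 RPKM. Bicarbonate, anion and sulfate carriers were listed for 3 of 26 genes, Slc26a11 at 5.94 RPKM, the anion exchanger Slc4a2 at 2.44 RPKM and the sodium-bicarbonate carrier Slc4a7 at 2.16 RPKM. The sodium-potassium-chloride carrier Slc12a2 stood at 4.91 ± 0.82 RPKM, above Slc12a4 at 2.28 RPKM and Slc12a9 at 2.16 RPKM. The sodium-proton exchanger gene Slc9a8, known from the Golgi, stood at 2.78 RPKM.

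The sodium-phosphate carrier Slc20a2 averaged 43.8 ± 1.92 RPKM, and its relative Slc20a1 at 5.85 ± 0.10 RPKM. Slc37a4, which moves glucose 6-phosphate into the reticulum, was at 6.42 RPKM. Nucleotide sugar and related carriers of organelle membranes were listed for 14 of 35 genes, with Slc35b1 at 20.6 ± 0.96 RPKM and Slc35a4 at 20.3 ± 0.93 RPKM highest and overlapping, followed by the sulfate donor carrier Slc35b2 at 16.5 RPKM. The acetyl-CoA carrier Slc33a1 of this class was lower, at 4.16 RPKM. Slc46a3 was the highest of 4 listed carriers of vitamins, haem and choline at 13.6 RPKM, above the folate carrier Slc46a1 at 7.09 RPKM, the haem carrier Slc48a1 at 7.02 RPKM and Slc44a2 at 4.06 RPKM. Slc22a17, a lipocalin receptor, led 4 carriers of organic ions at 20.4 ± 0.90 RPKM, with Slc22a23 at 5.57 RPKM, and the taurine carrier Slc6a6 led the osmolyte and neurotransmitter class at 6.95 ± 0.76 RPKM, above the GABA carrier Slc6a11 at 2.84 RPKM. Fatty acid carriers were Slc27a4 at 5.17 RPKM and Slc27a1 at 2.74 RPKM.

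Of a list of 37 carriers drawn up for roles in lens transport, 23 were listed. Those outside the inbred table included Slc2a3, the inositol carrier Slc5a3, the glutamate carriers Slc1a1 and Slc1a3, Slc16a8, the ascorbate carriers Slc23a1 and Slc23a2, Slc4a3, Slc4a4, Slc12a7, Slc24a2 and the iron exporter Slc40a1. Of 18 symbols of carriers and related genes named outside the Slc system 10 were listed, the highest being Mtch1 at 59.0 RPKM. The pyruvate carrier genes Brp44 and Brp44l were at 3.20 and 2.74 RPKM. Their newer symbols, Mpc2 and Mpc1, are also among the 18 and were not listed, so 18 is not a count of genes. Of the carriers among the markers of other cells, none was listed: Slc4a1 of red cells, Slc45a2 and Slc24a5 of pigment cells, and Slc17a6, Slc17a7 and Slc32a1 of neurons. In the same libraries the globin gene Hba-a2 stood at 421, 389 and 366 RPKM.

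The inbred replicates were close. The median coefficient of variation over 3 libraries was 7.23% for carriers, beside 7.21% for all listed genes, and it was over 20% in 2 carriers (1.83%, beside 3.06%). Those were Slc7a1, at 5.48, 7.07 and 9.56 RPKM (27.9%), and Slc8a1 (23.1%). The next, Slc35e1, stood at 3.50, 4.02 and 5.03 RPKM (18.7%). The smallest variation was that of Slc25a44, at 7.69, 7.62 and 7.81 RPKM (1.23%), followed by Slc30a9 (1.42%) and Slc20a1 (1.78%). At the foot of the list, Slc25a15 stood at 2.06 RPKM and Slc25a35 at 2.10 RPKM, close above Slc6a17, and each had libraries on either side of 2 RPKM.

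The normalized expression values of some abundant carriers were low for their reads. The normalized value per read, set to 1 at the median of all listed genes, was under 0.5 in 8 of 109 carriers (7.34%, beside 7.17% of all listed genes). Among these were 4 of the 7 highest, Slc2a1 (0.468), Slc7a5 (0.247), Slc25a5 (0.466) and Slc39a7 (0.023). The others were Slc31a1 (0.170), Slc25a23 (0.324), Slc25a35 (0.348) and Slc20a1 (0.406). The order of the highest carriers by RPKM may therefore not hold on the normalized values, on which carriers were not ranked. Shared sequence was measured as the percentage of the 31-base words of the longest transcript that occur, on either strand, in transcripts of other genes. It was 84.1% for Slc39a7, mostly with Gm20427, and 67.1% for Slc25a5, mostly with Slc25a5-ps, so the RPKM of these genes is uncertain. It was 28.1% for Slc25a35, which overlaps Rangrf, and 13.9% for Slc20a1, but 2.32% for Slc2a1 and 0% for Slc7a5 and Slc31a1. Low normalized values thus occurred with and without shared sequence. For the carriers with knockout values the shared part was 1.23% in Slc38a5, 1.76% in Slc8a1 and 0% in Slc46a3.

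**Figure D5:**
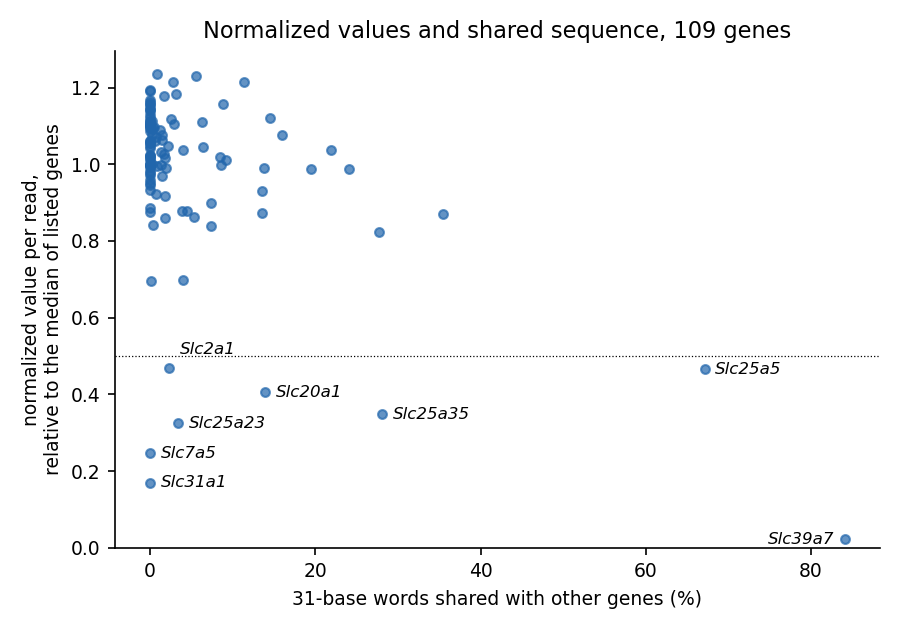
Normalized value per read relative to the median of all listed genes, against the percentage of 31-base words shared with other genes, for 109 carriers in inbred wild type; the dotted line is at 0.5. The 8 named genes lie under it, at shares from 0% to 84.1%.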

How the data were processed

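The authors deposited RPKM values and normalized expression values for each gene and library, per the file headers. The deposited normalized values are a score whose unit no source states. Exon lengths in bases were given in the inbred files only. The submitters' processing notes name CASAVA 1.8.2. What aligner, annotation and build were used is not given in the sources used here. Rows with a repeated symbol (24 rows, 12 symbols) were left out of the inbred files, and spaces after symbols were removed.

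Depth and reads were worked out from the product of RPKM and exon length, whose low values came out as whole reads in 100% of cases (tolerance 0.1 reads). All p-values and SE measure the spread between libraries of 30 pooled lenses. No replicate pair was as close as sampling noise (chi-square over its degrees of freedom, 6.97 to 54.5).

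Groups were compared with limma 3.58.1 (R 4.3.3, mean-variance trend) on log2(RPKM + 0.5), keeping genes whose mean over the 6 libraries reached 1 RPKM, with Benjamini-Hochberg adjustment over all genes at 0.05. With 3 libraries a group, the smallest p of an exact permutation test is 0.1 (two-sided), and every carrier tested was at it in every comparison. Folds are ratios of mean RPKM. The fit was also run on simulated data with known changes in part of the genes. The outcome is not given here and is no support for the calls, because the genes tested here were listed for differing. Substrate classes follow family numbers. Members, lists and classes were chosen with earlier results of these data known. Genes named were all carriers of the cKO files, the 20 highest, class leaders, extremes of variation and list genes. Slc25a17, Slc25a28, Slc25a37, Slc38a7, Slc35b2, Slc33a1, Slc12a9 and other lower class members were named after their values were seen. Promoters come from the RefSeq table for GRCm38.p6 and transcripts from GENCODE M21 (GRCm38), whose symbols matched all 110 carriers. All else ran in Python 3.11.15 (numpy 2.4.6; pandas 2.3.3; scipy 1.17.1). Results for some genes are not reported here.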

Additional observations from a re-analysis of the deposited data

How the results depend on the processing

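Every carrier kept its direction under the alternatives run for its comparison: quantile normalization, median centring, pseudocounts of 0.1 and 1, no filter, a floor of 2 RPKM on the mean, all 9 libraries in one fit, the replicate block, omission of each library and, for cKO against mixed wild type, the normalized expression values with a pseudocount of 10. In cKO against mixed wild type the log2 fold change ran from 1.46 to 2.78 for Slc38a5, 0.84 to 2.13 for Slc8a1 and -2.34 to -1.36 for Slc46a3. All 3 calls held, except that Slc38a5 could not enter the joint fit of 9 libraries, having no inbred values. As all 190 genes differ between these same libraries, calls that held are no separate support. In cKO against inbred wild type the ranges were 0.85 to 1.44 for Slc8a1 and -2.02 to -1.56 for Slc46a3. In mixed against inbred wild type they were -0.85 to -0.34 for Slc8a1 and -0.37 to -0.18 for Slc46a3. On the RPKM scale the direction of Slc8a1 in that comparison was fixed by the floor of 2 RPKM on listed inbred means, given its mixed level. The normalized values were not fitted between mixed and inbred wild type, and there the Slc46a3 means ran opposite to RPKM (868 in mixed, 845 in inbred). There the number of carriers called was 2 under median centring and 0 to 1 when a library was left out, and the cause was not tested. Genes called in mixed against inbred wild type ran from 46 to 62, from 185 to 190 in cKO against mixed wild type and from 118 to 121 in cKO against inbred wild type when a library was left out. Same-numbered libraries did not deviate together (correlations -0.52 to 0.24), so the numbers do not pair them, and with the replicate number as a block the calls were 189, 47 and 120 genes in the cKO against mixed, mixed against inbred and cKO against inbred comparisons, beside 189, 63 and 120 without it. Carriers made up 0.348% of the summed RPKM of listed genes, and 0.896% when crystallins were left out of the sum, by construction of a smaller total. Without 1 inbred library, 108 to 109 carriers had a mean of at least 2 RPKM, a check added after the data were seen.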

Other observations

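In the inbred libraries 67 of 109 carriers (61.5%, beside 52.4% of all listed genes) had their highest RPKM in replicate 3, 28 in replicate 1 and 14 in replicate 2. Replicate 3 was also the shallowest of the 3 libraries, at 14.1 M reads (M, 1e6). Slc7a5, Slc7a1, Slc1a4, Slc7a11 and Slc39a10 were all lowest in replicate 1 and highest in replicate 3, with Slc39a10 at 7.41, 8.96 and 9.85 RPKM and Slc1a4 at 13.7, 15.7 and 18.9 RPKM. These genes were singled out after their values were seen. The same order held in other carriers, such as Slc2a1, Slc38a2, Slc24a4 and Slc7a2, so it is not particular to them. How many carriers or listed genes shared it was not counted.

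The authors' exon length for Slc8a1 is 3068 bases, while its longest transcript in GENCODE M21 has 18464 bases. The deposited RPKM rests on the shorter length, and whether reads of the longer form were counted is not given in the sources used here.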
